A study of Mus musculus with 12 samples.

Results

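The genes described here are 10 that serve the making and binding of bone mineral, read across a differentiation series of OCY454 cells with and without an intact Piezo1 gene. They were taken by symbol from the deposited count table: Alpl, Phospho1 and Smpd3, which encode enzymes of phosphate release and matrix vesicles, Enpp1 and Ank, which supply extracellular pyrophosphate, Ibsp, Spp1, Bglap and Bglap2, which encode mineral-binding matrix proteins, and Ifitm5, which encodes a bone membrane protein. They are 10 of the 32245 genes in the table, and all 10 were among the 13772 with enough counts to be tested. OCY454 is a mouse osteocyte-like line that is grown at 33 °C and differentiates when moved to 37 °C. The KO groups are OCY454 cells from which exons 19 to 21 of Piezo1, the gene of a stretch-gated cation channel, were removed with CRISPR-Cas9, sampled 1, 14 and 28 days after the move to 37 °C. The WT groups are OCY454 cells without that deletion, sampled on the same 3 days. Each of the 6 groups has 2 poly(A) RNA libraries, and all 12 come from cells in the same growth medium in 12-well plates. The number of edited clones is not given in the sources used here, nor whether the 2 libraries of a group came from separate cultures. The spread behind each p-value is that between libraries of the same group, pooled over the 6 groups, and may be technical. The comparisons ask how these genes differ between the KO and WT lines on each day and over the days. In every such difference, the loss of Piezo1 cannot be told apart from other differences between the 2 lines, such as those between clones.

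Bone mineral forms when phosphate is set free from organic phosphates and from pyrophosphate, a small molecule that blocks crystal growth. Alkaline phosphatase splits pyrophosphate outside the cell, while the phosphatase made from Phospho1 and the sphingomyelinase made from Smpd3 act in the matrix vesicles where the first crystals appear, and Enpp1 and Ank work the other way by making pyrophosphate or carrying ATP and pyrophosphate out of the cell. Bone sialoprotein (Ibsp), osteopontin (Spp1) and osteocalcin (Bglap and Bglap2) are acidic secreted proteins that bind hydroxyapatite, and osteoblasts and osteocytes are known for making them.

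Total counts ran from 8590067 to 15357427 per library. Replicates differed least in KO at day 1 and most at day 28, with a chi-square per degree of freedom over genes of 1.42 in KO at day 1, 5.65 in KO at day 28 and 10.3 in WT at day 28. Standard errors and p-values rest on a spread pooled over the 6 groups, so those of day 28 do not show its wider spread. For Ibsp the SE of KO minus WT was 0.13 at both day 1 and day 28. The SD of Ibsp in KO was 40.2 CPM at day 1 and 322 CPM at day 28. Gene-level Piezo1 counts cover mostly exons outside the deletion and so barely check the labels: Piezo1 had 169.6 ± 0.323, 110.9 ± 4.76 and 278.5 ± 4.19 CPM (depth-scaled counts, mean ± SD, n = 2) in KO at days 1, 14 and 28, and 215.3 ± 1.13, 208.4 ± 3.25 and 238.5 ± 4.73 CPM in WT. The defining osteoblast genes Runx2, Sp7, Col1a1 and Col1a2 were present in every library, and the muscle regulators Myod1 and Myog and the T cell gene Cd3e were at 0 in all 12. Summed over 12 osteoblast and osteocyte markers, of which Alpl and Bglap2 are 2, the libraries held 13516 to 13669, 34481 to 34789 and 5574 to 7678 CPM in KO at days 1, 14 and 28, and 11876 to 12254, 17396 to 18532 and 6392 to 9011 CPM in WT. Col1a1 and Col1a2 supply 92.2% of the counts of that list, so the sum follows type I collagen. At day 14, when the sum was higher in KO, Dmp1 (-0.92), Fam20c (-0.57), Pdpn (-0.39) and Bglap2 (-1.06) of the list were lower in KO (log2 fold changes, adjusted p = 0.00185, 5.75e-05, 0.02 and 2.67e-06 in edgeR's quasi-likelihood test). A row for a YAP-EGFP transgene held 0 to 7 counts in the KO libraries, 2 and 3 in WT at day 1, 82 and 45 in WT at day 14, and 224 and 75 in WT at day 28, and its part in the results was not tested.

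RefSeq promoter windows (GRCm38.p6) were found for 8 of the 10 genes, all but Smpd3 and Bglap2. They are shown for the genes that were lower in KO on all 3 days and have a printable window (Spp1 and Enpp1), and for 3 that were higher in KO at day 14 (Alpl, Phospho1 and Ifitm5). Each run has 150 bases, 5′ to 3′ on the gene's strand, and ends before the gene's start in both RefSeq and GENCODE M21. Counted back from the RefSeq start, the runs span bases -150 to -1, except -151 to -2 for Phospho1 and -198 to -49 for Ifitm5. Capitals mark the RUNX core TGTGGT and the GC box GGGCGG, searched on both strands, so that on the opposite strand the RUNX core reads ACCACA while the GC box found there reads CCGCCC.
Spp1 (chr5:104434961-104435110, plus strand): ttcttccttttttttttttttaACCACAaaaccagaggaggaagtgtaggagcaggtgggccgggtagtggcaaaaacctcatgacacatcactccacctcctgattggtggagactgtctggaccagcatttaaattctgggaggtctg
Enpp1 (chr10:24712160-24712309, minus strand): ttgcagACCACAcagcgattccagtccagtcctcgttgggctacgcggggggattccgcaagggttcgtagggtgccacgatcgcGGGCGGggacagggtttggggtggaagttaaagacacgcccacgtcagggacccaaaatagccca
Alpl (chr4:137796385-137796534, minus strand): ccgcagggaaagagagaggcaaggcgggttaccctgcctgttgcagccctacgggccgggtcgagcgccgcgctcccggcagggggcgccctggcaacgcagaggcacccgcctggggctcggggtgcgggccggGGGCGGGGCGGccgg
Phospho1 (chr11:95824349-95824498, plus strand): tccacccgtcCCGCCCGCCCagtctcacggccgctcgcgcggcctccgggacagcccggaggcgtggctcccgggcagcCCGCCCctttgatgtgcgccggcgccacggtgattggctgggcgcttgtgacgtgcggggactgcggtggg
Ifitm5 (chr7:140950292-140950441, minus strand): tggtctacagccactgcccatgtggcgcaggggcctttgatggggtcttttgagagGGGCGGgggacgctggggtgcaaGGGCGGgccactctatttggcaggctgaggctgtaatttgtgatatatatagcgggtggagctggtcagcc

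In the whole 300-base windows, the RUNX core was present in 3 of the 8 genes (Spp1, Bglap and Enpp1), against 18.9% of all genes with a window. In Spp1 it spans bases -128 to -123, in Bglap -132 to -127 and in Enpp1 -144 to -139, on the same count from the RefSeq start. The GC box was present in 5 of the 8 (Alpl, Phospho1, Ifitm5, Enpp1 and Ank), against 38.2% of all genes. In Alpl, Phospho1 and Ank a pair of GC boxes overlaps, so that the letters run together in capitals. The homeodomain core TAATTG, in the windows of Ibsp and Bglap, was held by 9.22% of all genes. These are matches of letters and no measure of binding.

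The osteocalcin genes lie side by side on chromosome 3, on the minus strand. In GENCODE M21 (GRCm38/mm10) Bglap spans 88383501 to 88384464, Bglap2 spans 88377736 to 88378699, and Bglap3, a further copy that is not among the 10 genes, spans 88368616 to 88372743. Their coding sequences, read from the GENCODE transcripts, are shown because their likeness limits what the counts can tell apart. Capitals mark the bases of Bglap and Bglap3 that differ from Bglap2.
Bglap: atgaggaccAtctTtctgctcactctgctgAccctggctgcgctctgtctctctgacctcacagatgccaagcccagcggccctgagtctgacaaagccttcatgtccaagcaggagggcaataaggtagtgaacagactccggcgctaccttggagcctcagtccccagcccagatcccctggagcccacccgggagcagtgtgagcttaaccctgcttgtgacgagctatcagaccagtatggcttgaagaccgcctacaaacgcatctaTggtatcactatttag
Bglap2: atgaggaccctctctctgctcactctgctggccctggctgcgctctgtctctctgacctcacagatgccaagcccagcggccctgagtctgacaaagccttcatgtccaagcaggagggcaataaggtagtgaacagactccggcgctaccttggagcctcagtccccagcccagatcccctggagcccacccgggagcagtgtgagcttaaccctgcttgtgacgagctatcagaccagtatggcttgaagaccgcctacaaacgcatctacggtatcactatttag
Bglap3: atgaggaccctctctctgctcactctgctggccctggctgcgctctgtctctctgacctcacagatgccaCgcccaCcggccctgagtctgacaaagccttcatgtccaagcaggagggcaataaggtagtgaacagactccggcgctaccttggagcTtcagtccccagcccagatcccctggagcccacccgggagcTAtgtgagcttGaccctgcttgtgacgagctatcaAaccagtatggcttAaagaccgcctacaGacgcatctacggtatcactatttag

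Each coding sequence has 288 bases. Bglap and Bglap2 differ at 4 of them (98.6% identical), Bglap and Bglap3 at 13 (95.5%), and Bglap2 and Bglap3 at 9 (96.9%). Of all stretches of 50 bases in the Bglap coding sequence, 80.3% also occur in that of Bglap2. Fewer are shared with the coding sequence of Bglap3, 13.4% of those of Bglap and 22.2% of those of Bglap2. Over whole transcripts, the shortest protein-coding one of each gene, 74.7% of the stretches of Bglap occur in Bglap2. With Bglap3, 20.5% of those of Bglap and 37.9% of those of Bglap2 are shared. How reads that match several places were counted is not given in the sources used here, so the split of counts among these genes is uncertain, most of all between Bglap and Bglap2.

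At day 1, 6 of the 10 genes were called between the lines, 5 lower in KO (Alpl, Phospho1, Ibsp, Spp1 and Enpp1) and 1 higher (Bglap2). Called means an adjusted p below 0.05 in edgeR's quasi-likelihood test over all genes tested, which 40.3% of all genes reached in that comparison, 19.5% higher and 20.8% lower in KO. At day 14 all 10 were called, 4 higher in KO (Alpl, Phospho1, Smpd3 and Ifitm5) and 6 lower (Ibsp, Spp1, Bglap, Bglap2, Enpp1 and Ank), against 49.7% of all genes, 23.8% higher and 25.9% lower. At day 28 the called genes were 6, with Bglap2 higher in KO and Alpl, Smpd3, Ibsp, Spp1 and Enpp1 lower, against 41% of all genes, 19.8% higher and 21.2% lower. The median log2 fold change of the 10 was -0.18, -0.48 and -0.31 at days 1, 14 and 28, and that of all genes -0.01, -0.02 and -0.01. Enpp1, Spp1 and Ibsp were lower in KO on each of the 3 days, while Alpl, Phospho1, Smpd3 and Bglap2 were called in both directions on different days. The libraries of KO and WT did not overlap in CPM for any of the 10 genes at days 1 and 14, as was so for 73.2% and 76.4% of all genes, and did not overlap for 5 of them at day 28, against 64.7% of all genes. In these bulk libraries, fewer cells that make an RNA and less of it per cell cannot be told apart.

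**Figure D1:**
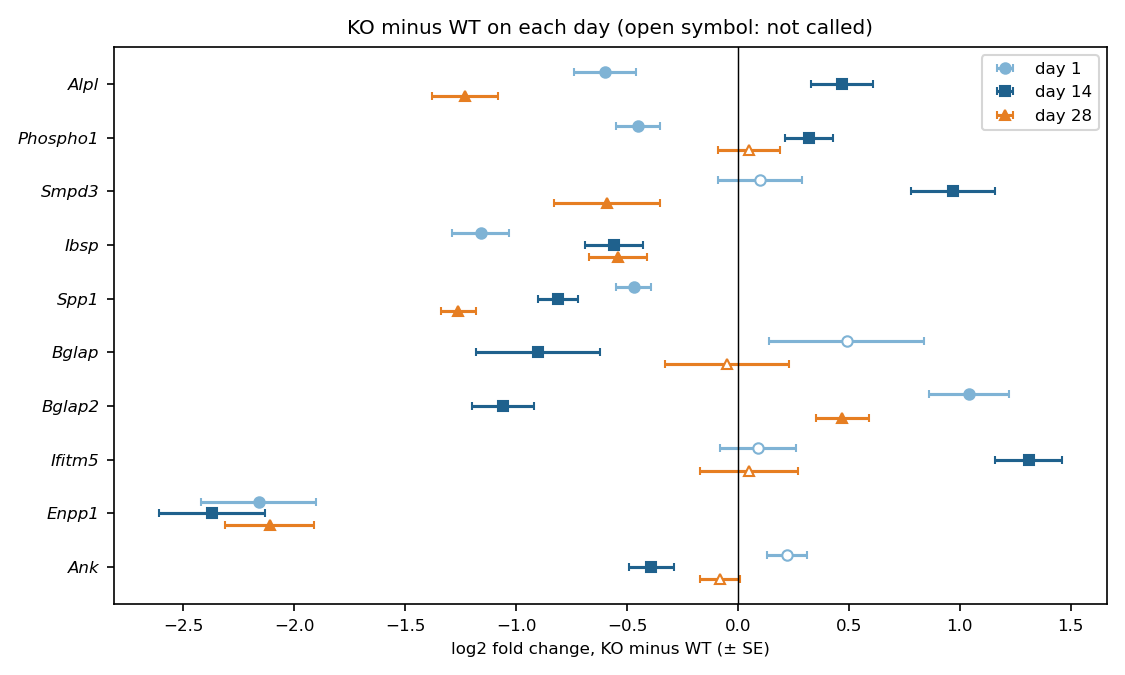
Log2 fold change of KO minus WT for each of the 10 genes, with bars for the standard error, at day 1 (circles), day 14 (squares) and day 28 (triangles). Filled symbols mark an adjusted p below 0.05; Enpp1 lies between -2.37 and -2.11 on all 3 days, and Alpl lies below 0 at days 1 and 28 and at 0.47 at day 14.

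Alpl (chr4:137741733-137796384, minus strand) encodes tissue-nonspecific alkaline phosphatase, the cell-surface enzyme that splits pyrophosphate. At day 1 it had 535.4 and 541.2 CPM in KO, against 791.1 and 842.4 CPM in WT, and was 1.52-fold lower in KO (log2 fold change -0.60 ± 0.14 SE, adjusted p = 0.00178). At day 14 the KO libraries were on the higher side, with 991.1 and 942.2 CPM in KO and 736.8 and 661.8 CPM in WT (0.47 ± 0.14, adjusted p = 0.00913). By day 28 Alpl had dropped to 188.5 and 125.5 CPM in KO, against 443.3 and 291.5 CPM in WT (-1.23 ± 0.15, adjusted p = 1.08e-06). The 2 lines thus did not overlap on any day, and their order turned round at day 14 and back at day 28. The day 14 call was the least firm: the log2 fold change was 0.43 with an adjusted p of 0.0654 without KO day 14 replicate 1, 0.39 with 0.0938 without WT day 14 replicate 2, and 0.47 with 0.105 in DESeq2. Within KO, Alpl rose 1.80-fold between days 1 and 14 (0.84 ± 0.14, adjusted p = 7.65e-05) and fell 6.18-fold between days 14 and 28 (-2.63 ± 0.15, adjusted p = 7.49e-12). In WT its change between days 1 and 14 was -0.22 ± 0.14 (adjusted p = 0.237), called without either of the WT day 28 replicates (adjusted p = 0.0303 without replicate 1 and 0.0308 without replicate 2), and its fall between days 14 and 28 was 1.90-fold (-0.93 ± 0.14, adjusted p = 4.05e-05). Over the 6 groups, mean Alpl ran from 966.7 CPM in KO at day 14 through WT at day 1, WT at day 14, KO at day 1 and WT at day 28 to 157 CPM in KO at day 28, with no overlap between neighbours in that order.

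Phospho1 (chr11:95824499-95832140, plus strand) encodes a phosphatase that frees phosphate from phosphocholine and phosphoethanolamine inside matrix vesicles. It had 44.6 and 45.8 CPM in KO at day 1, against 59.8 and 64.1 CPM in WT (-0.45 ± 0.10, adjusted p = 0.000968). At day 14 it had 49.8 and 51.9 CPM in KO, against 40.3 and 41.2 CPM in WT (0.32 ± 0.11, adjusted p = 0.0166). At day 28 the lines overlapped, with 17.2 and 12.7 CPM in KO and 15.8 and 12.6 CPM in WT (0.05 ± 0.14, adjusted p = 0.797). Phospho1 thus took the same turn as Alpl at day 14 but by less, and the day 14 call was lost without KO day 14 replicate 2 (0.29, adjusted p = 0.0978), WT day 14 replicate 1 (0.31, 0.0911) or WT day 14 replicate 2 (0.33, 0.0555). Both lines lost most of their Phospho1 between days 14 and 28, by 3.44-fold in KO (-1.78 ± 0.12, adjusted p = 6.61e-11) and 2.85-fold in WT (-1.51 ± 0.12, adjusted p = 1.79e-08). WT had its fall partly before that, with -0.61 ± 0.10 between days 1 and 14 (adjusted p = 0.000106), where KO had 0.17 ± 0.10 (adjusted p = 0.207). In the annotation 84.2% of the exon bases of Phospho1 are shared with Abi3 on the opposite strand and 89.6% with Zfp652 on the same strand, and how the counting treated strand is not given in the sources used here. Abi3 had 5.18, 7 and 0.96 CPM in KO at days 1, 14 and 28 and 9.5, 5.01 and 1.11 CPM in WT, in the same order of days as Phospho1 within each line, while Zfp652 stayed between 123.8 and 148.3 CPM in group means; which reads of the shared bases were given to which gene was not tested.

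Smpd3 (chr8:106252548-106337988, minus strand) encodes neutral sphingomyelinase, a membrane lipid enzyme whose loss leaves mouse bone poorly mineralized. Its day 1 values were 307.5 and 297.7 CPM in KO and 279.7 and 285.2 CPM in WT (0.10 ± 0.19, adjusted p = 0.713), a gap that was called in a fit of that day's 4 libraries alone (adjusted p = 0.0326). At day 14 Smpd3 was 1.96-fold higher in KO, with 452 and 424.7 CPM in KO against 228.5 and 219.3 CPM in WT (0.97 ± 0.19, adjusted p = 0.000246). At day 28 the libraries overlapped, with 47.3 and 22.7 CPM in KO and 68.5 and 34 CPM in WT. The day 28 difference sat at the threshold (-0.59 ± 0.24, adjusted p = 0.0493) and depended on single libraries of that day: it was 0.00 (adjusted p = 0.989) without WT replicate 1, -0.13 (0.703) without KO replicate 2 and -1.18 (0.000642) without KO replicate 1. It was also not called in DESeq2 (-0.55, adjusted p = 0.314), with that day's libraries alone (-0.58, 0.176), or on leaving out any one library of days 1 and 14 (adjusted p from 0.0617 to 0.07). Smpd3 had the largest fall of the 10 genes between days 14 and 28 in both lines, 12.8-fold in KO (-3.67 ± 0.22, adjusted p = 1.6e-11) and 4.33-fold in WT (-2.11 ± 0.21, adjusted p = 2.39e-07). Without KO day 28 replicate 1 the fall in KO was -4.27 and without WT day 28 replicate 1 the fall in WT was -2.72. Its rise in KO between days 1 and 14 (0.53 ± 0.19, adjusted p = 0.029) was not called in DESeq2 (0.33) or without any one of the 4 libraries of those groups (adjusted p from 0.0879 to 0.152), and the WT change of -0.33 ± 0.19 (adjusted p = 0.187) was called without either WT day 28 replicate (0.00781 and 0.00793). Smpd3 shares 4.72% of its exon bases with Prmt7 on the opposite strand.

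**Figure D2:**
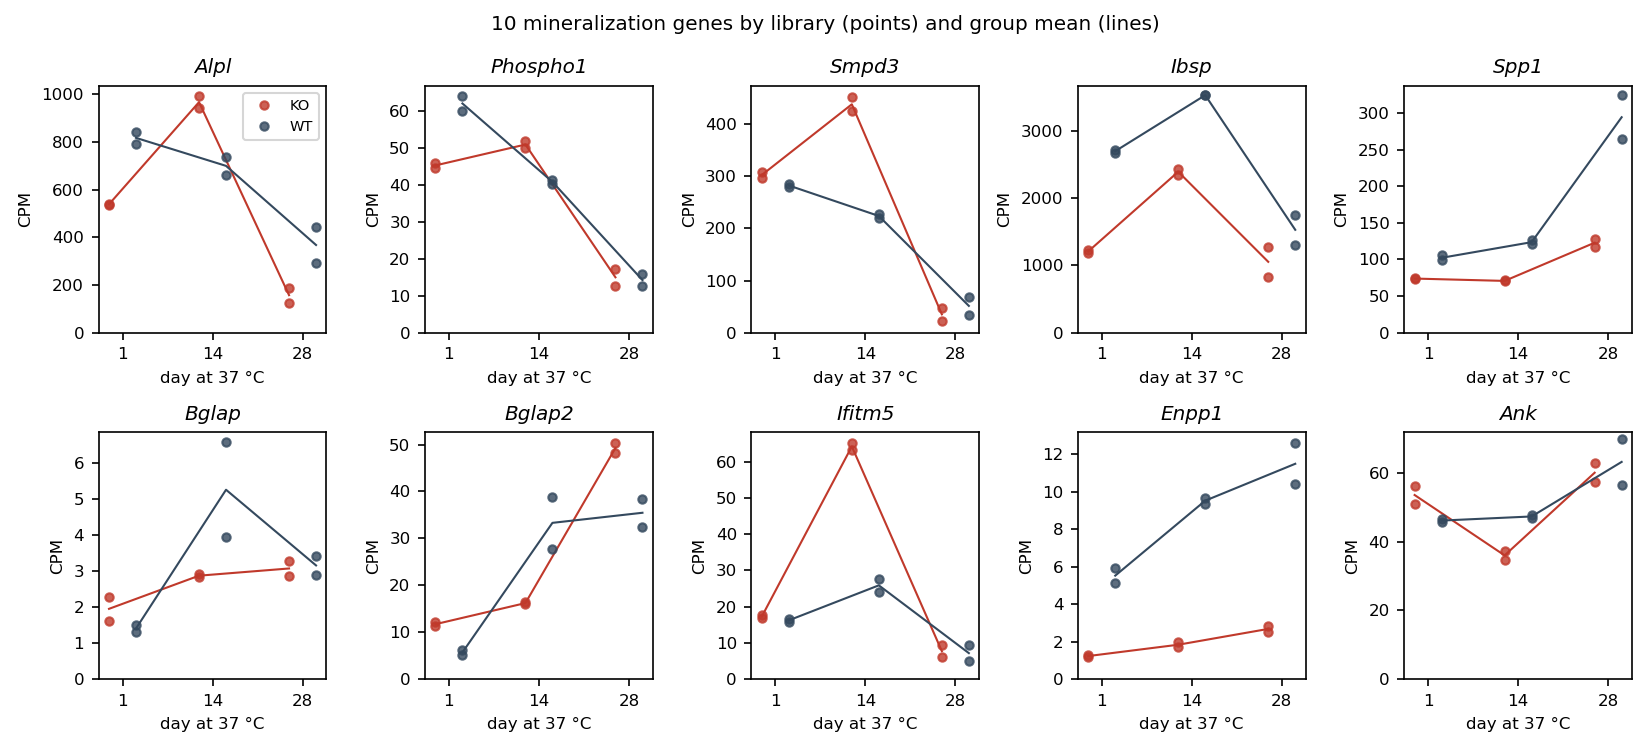
CPM of each of the 10 genes in every library (points, KO left of WT) at days 1, 14 and 28 at 37 °C, with lines through the group means; each panel has its own axis from 0. Alpl, Smpd3 and Ifitm5 have their highest points in KO at day 14, Enpp1 lies at 1.18 to 2.85 CPM in KO and 5.14 to 12.6 CPM in WT, and both Spp1 lines are highest at day 28.

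Enpp1 (chr10:24637914-24712159, minus strand) encodes the ectoenzyme that makes pyrophosphate from nucleotide triphosphates, and it differed between the lines by the largest fold of the 10 genes on every day. It had 1.28 and 1.18 CPM in KO at day 1, against 5.14 and 5.91 CPM in WT, or 15 and 16 counts against 79 and 90. By day 14 it held 1.7 and 1.97 CPM in KO, against 9.69 and 9.37 CPM in WT. By day 28 it held 2.85 and 2.51 CPM in KO, against 12.6 and 10.4 CPM in WT. The highest KO library lay below the lowest WT library, whatever the day. Enpp1 was 4.48-fold lower in KO at day 1 (-2.16 ± 0.26, adjusted p = 9.46e-07), 5.16-fold at day 14 (-2.37 ± 0.24, adjusted p = 4.58e-08) and 4.31-fold at day 28 (-2.11 ± 0.20, adjusted p = 5.49e-08). Both lines had more Enpp1 at day 28 than at day 1, by 1.12 ± 0.30 in KO (adjusted p = 0.00329) and 1.06 ± 0.18 in WT (adjusted p = 4.57e-05). The 3 differences in change between the lines were not called, at -0.21 ± 0.39, 0.26 ± 0.33 and 0.06 ± 0.33 for days 1 to 14, 14 to 28 and 1 to 28 (adjusted p = 0.768, 0.619 and 0.942). All 6 groups could be ordered without overlap of neighbours, from WT at day 28, WT at day 14 and WT at day 1 down to KO at day 28, KO at day 14 and KO at day 1.

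Ank (chr15:27466677-27594909, plus strand) encodes the membrane protein through which ATP and pyrophosphate leave the cell, and it varied least of the 10 genes, with 1.75-fold between its highest and lowest group means. It had 50.9 and 56.4 CPM in KO at day 1, against 46.7 and 45.7 CPM in WT (0.22 ± 0.09, adjusted p = 0.073). That difference was called with the day's 4 libraries alone (adjusted p = 0.00703) and without WT day 28 replicate 1 (0.0179) or replicate 2 (0.0173). At day 14 Ank was lower in KO, with 34.7 and 37.4 CPM in KO and 46.9 and 47.9 CPM in WT (-0.39 ± 0.10, adjusted p = 0.00335). At day 28 the lines overlapped, at 62.9 and 57.4 CPM in KO and 70.1 and 56.5 CPM in WT (-0.08 ± 0.09, adjusted p = 0.523), although a difference of -0.22 was called without WT day 28 replicate 2 (adjusted p = 0.0402). Ank dipped in KO at day 14, by -0.57 ± 0.10 relative to day 1 (adjusted p = 0.000111), where WT changed by 0.03 ± 0.10 (adjusted p = 0.824). Between days 14 and 28 it rose in both lines, by 0.73 ± 0.10 in KO (adjusted p = 2.32e-06) and 0.42 ± 0.10 in WT (adjusted p = 0.00186).

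Ibsp (chr5:104299171-104311469, plus strand) encodes bone sialoprotein, a nucleator of hydroxyapatite, and had the highest level of the 10 genes in every group. At day 1 it had 1236 and 1179 CPM in KO, against 2720 and 2679 CPM in WT (-1.16 ± 0.13, adjusted p = 5.41e-07, 2.24-fold lower in KO). At day 14 it had 2349 and 2438 CPM in KO, against 3532 and 3534 CPM in WT (-0.56 ± 0.13, adjusted p = 0.00125). At day 28 it had 1281 and 825.1 CPM in KO, against 1750 and 1309 CPM in WT (-0.54 ± 0.13, adjusted p = 0.00252). The gap was widest at day 1, and at day 28 the KO replicates lay far apart, so that without KO day 28 replicate 2 the difference was -0.25 (adjusted p = 0.0789). Ibsp peaked at day 14 in both lines. Its rise from day 1 was 1.98-fold in KO (0.99 ± 0.13, adjusted p = 5.37e-06) and 1.31-fold in WT (0.39 ± 0.13, adjusted p = 0.026), and the WT rise was not called in DESeq2 (0.182), with library totals only (0.0509) or without any one of the 4 libraries of those groups (0.0929 to 0.126). Its fall between days 14 and 28 was close in size, -1.19 ± 0.13 in KO (adjusted p = 1.94e-07) and -1.21 ± 0.13 in WT (adjusted p = 7.54e-07), with a difference between the lines of 0.02 ± 0.19 (adjusted p = 0.949).

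Spp1 (chr5:104435118-104441050, plus strand) encodes osteopontin, a phosphorylated glycoprotein that binds hydroxyapatite and slows its growth. It had 74.7 and 73.1 CPM in KO at day 1, against 98.9 and 105.7 CPM in WT (-0.47 ± 0.08, adjusted p = 0.000148). The day 14 libraries held 71.5 and 69.9 CPM in KO, against 120.7 and 126.7 CPM in WT (-0.81 ± 0.09, adjusted p = 1.48e-07). The day 28 libraries held 117.4 and 128.5 CPM in KO, against 324.6 and 264.6 CPM in WT (-1.26 ± 0.08, adjusted p = 1.06e-10). The KO libraries were below WT on each day, 1.38-fold at day 1, 1.75-fold at day 14 and 2.39-fold at day 28. The change over the whole course differed between the lines by -0.79 ± 0.12 (adjusted p = 4.81e-05): Spp1 rose 1.67-fold in KO (0.74 ± 0.08, adjusted p = 2.73e-07) and 2.88-fold in WT (1.53 ± 0.08, adjusted p = 3.88e-12). In KO the change between days 1 and 14 was -0.06 ± 0.09 (adjusted p = 0.609). In WT it was 0.27 ± 0.08 (adjusted p = 0.0144), not called without WT day 1 replicate 1 (0.23, 0.128), without WT day 14 replicate 2 (0.25, 0.0958) or with library totals only (0.21, 0.0563).

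The osteocalcin genes encode a vitamin K-dependent protein of bone matrix that is a late marker of the osteoblast. Bglap2 had 11.3 and 12.1 CPM in KO at day 1, against 5.14 and 6.23 CPM in WT (1.04 ± 0.18, adjusted p = 8.93e-05). Its day 14 libraries held 15.9 and 16.5 CPM in KO, against 38.9 and 27.7 CPM in WT (-1.06 ± 0.14, adjusted p = 2.67e-06). Its day 28 libraries held 48.2 and 50.3 CPM in KO, against 38.4 and 32.5 CPM in WT (0.47 ± 0.12, adjusted p = 0.00337). Bglap2 was thus the reverse of Alpl in its order, higher in KO at days 1 and 28 and lower at day 14. WT had most of its rise by day 14 (5.91-fold, 2.56 ± 0.16, adjusted p = 9.45e-11) and changed by 0.08 ± 0.13 afterwards (adjusted p = 0.669). KO had most of it after day 14 (3.05-fold, 1.61 ± 0.13, adjusted p = 2.38e-09), and its change of 0.47 ± 0.16 before that (adjusted p = 0.0251) was not called without any one of the 4 libraries of those groups (adjusted p from 0.0717 to 0.13).

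Bglap was scarce, at 19 to 78 counts per library. It had 1.62 and 2.28 CPM in KO at day 1, against 1.3 and 1.51 CPM in WT (0.49 ± 0.35, adjusted p = 0.286). The day 14 libraries held 2.83 and 2.91 CPM in KO, against 6.58 and 3.93 CPM in WT (-0.90 ± 0.28, adjusted p = 0.0116). The day 28 libraries held 3.29 and 2.85 CPM in KO, against 3.42 and 2.89 CPM in WT, which overlapped (-0.05 ± 0.28, adjusted p = 0.9). WT day 14 replicate 1 was the highest library by far, and without it the day 14 difference was -0.45 (adjusted p = 0.334); without KO day 14 replicate 1 or 2 it was -0.88 (0.0612) and -0.92 (0.0558). The Bglap rise in WT between days 1 and 14 was 3.81-fold (1.93 ± 0.30, adjusted p = 4.08e-05). Its fall in WT between days 14 and 28 (-0.76 ± 0.27, adjusted p = 0.0336) was not called in DESeq2 (-0.74, 0.123), without WT day 14 replicate 1 (-0.31, 0.557) or without WT day 28 replicate 2 (-0.66, 0.128). In KO none of its 3 changes between days was called (adjusted p = 0.198, 0.835 and 0.0926).

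Since the copies are alike in sequence, Bglap and Bglap2 more so than Bglap3, the counts of all 3 were also summed. The sum was 13.4 and 14.9 CPM in KO at day 1, against 6.63 and 8.66 CPM in WT. At day 14 it was 21.3 and 21.1 CPM in KO, against 49.8 and 35.6 CPM in WT. At day 28 it was 68.4 and 72.8 CPM in KO, against 49.9 and 45.2 CPM in WT. Bglap2 made up most of the sum in every library, from 69.1% to 84.1%. KO minus WT, the summed osteocalcin stood at 0.89 on day 1 (adjusted p = 0.00023) and at 0.57 on day 28 (0.000385), in the direction of Bglap2. Bglap3 alone had 17 and 19.6 CPM in KO at day 28, against 8.1 and 9.74 CPM in WT (1.05 ± 0.20, adjusted p = 0.000231), and 2.64 and 1.71 CPM in KO at day 14, against 4.38 and 4.05 CPM in WT (-0.97 ± 0.32, adjusted p = 0.0162).

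Ifitm5 (chr7:140948958-140950291, minus strand) encodes an osteoblast membrane protein that is altered in a form of brittle bone disease. At day 1 it had 16.8 and 17.7 CPM in KO, against 16.7 and 15.7 CPM in WT (0.09 ± 0.17, adjusted p = 0.707). At day 14 it was 2.47-fold higher in KO, with 63.3 and 65 CPM in KO against 27.7 and 24 CPM in WT (1.31 ± 0.15, adjusted p = 3.39e-07). At day 28 the lines overlapped, with 9.43 and 5.98 CPM in KO and 9.28 and 5.04 CPM in WT (0.05 ± 0.22, adjusted p = 0.874). The lines thus stood apart at day 14 and were close on both other days. Ifitm5 rose 3.72-fold in KO between days 1 and 14 (1.89 ± 0.15, adjusted p = 5.59e-09) and 1.60-fold in WT (0.68 ± 0.17, adjusted p = 0.00302), the WT rise being 0.56 (adjusted p = 0.0689) without WT day 14 replicate 1. It then fell 8.49-fold in KO (-3.09 ± 0.17, adjusted p = 4.77e-12) and 3.56-fold in WT (-1.83 ± 0.19, adjusted p = 3.52e-07). Of the related Ifitm genes, Ifitm2 was also higher in KO at day 14 (0.90 ± 0.12, adjusted p = 2.28e-06) and at day 1 (0.70 ± 0.11, adjusted p = 3.28e-05), while Ifitm3 was higher in KO at day 1 (0.67 ± 0.10, adjusted p = 2.25e-05) and lower at day 28 (-0.76 ± 0.09, adjusted p = 1.52e-06).

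Over the days, the enzymes of phosphate release and Ifitm5 declined late in both lines, while Spp1, Bglap2 and Enpp1 ended higher than they began. Between days 1 and 14, 5 of the 10 genes rose and 1 fell in KO (37.5% of all genes were called, 19.4% higher and 18% lower), and 6 rose and 1 fell in WT (34.1%, 18.2% higher and 15.9% lower). Between days 14 and 28, 3 rose and 5 fell in KO (50.7% of all genes, 25.6% higher and 25.1% lower), and 2 rose and 6 fell in WT (34.7%, 17.9% higher and 16.8% lower). Alpl, Phospho1, Smpd3, Ibsp and Ifitm5 fell in both lines over that interval, and Spp1 and Ank rose in both. From day 1 to day 28, 3 rose and 4 fell in KO (55.5% of all genes, 28.2% higher and 27.4% lower), and 5 rose and 5 fell in WT (48%, 24.6% higher and 23.4% lower). Ibsp ended close to where it began in KO (-0.20 ± 0.13, adjusted p = 0.211) and lower in WT (-0.82 ± 0.13, adjusted p = 3.16e-05), with KO at -0.55 (adjusted p = 0.000292) without KO day 28 replicate 1. The comparisons between days and those between lines use the same libraries and are not independent of each other.

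**Figure D3:**
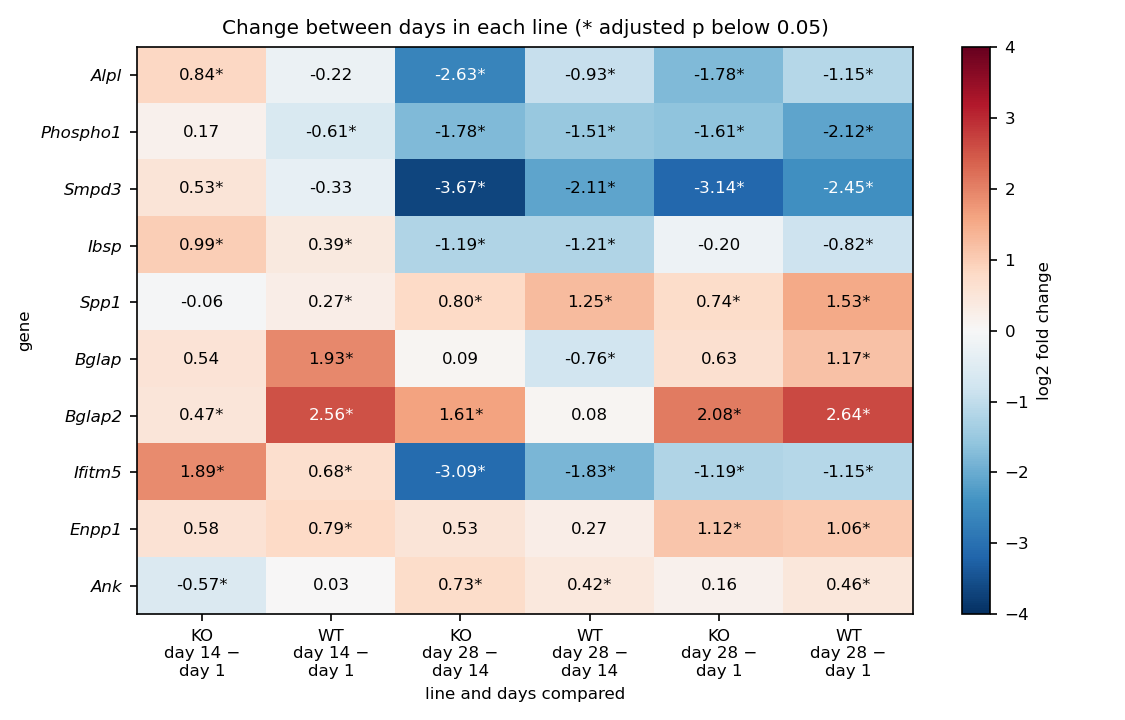
Log2 fold change of each of the 10 genes between days in KO and in WT, on a colour scale from -4 (blue) to 4 (red), with an asterisk for an adjusted p below 0.05. Between days 14 and 28 Smpd3 has -3.67 in KO and -2.11 in WT and Ifitm5 has -3.09 in KO and -1.83 in WT, while Bglap2 has 2.56 in WT between days 1 and 14, where KO has 0.47.

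The lines differed in how 8 of the 10 genes changed between days 1 and 14, 5 with a higher change in KO and 3 with a lower one, where 18.8% of all genes were called, 9.19% higher and 9.65% lower. The change was higher in KO by 1.21 ± 0.23 for Ifitm5 (adjusted p = 0.000652), 1.07 ± 0.20 for Alpl (0.000661) and 0.78 ± 0.15 for Phospho1 (0.000716), and lower by -2.10 ± 0.23 for Bglap2 (1.47e-06) and -0.61 ± 0.14 for Ank (0.00375). The calls of Smpd3 (0.87 ± 0.27, adjusted p = 0.0261), Ibsp (0.60 ± 0.19, 0.0273) and Bglap (-1.39 ± 0.45, 0.0345) were not made in DESeq2 (0.354, 0.2 and 0.0919). Leaving out any one library of the 4 groups involved gave adjusted p from 0.0658 to 0.106 for Smpd3 and from 0.0658 to 0.104 for Ibsp. For Bglap, 6 of those 8 omissions gave 0.0694 to 0.221, the exceptions being KO day 1 replicate 1 and WT day 14 replicate 2. Spp1 missed the threshold (-0.34 ± 0.12, adjusted p = 0.0585) and was called without any one of the day 28 libraries (0.00516 to 0.0477) and with no filter on low counts (0.0219).

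Between days 14 and 28 the lines differed in the change of 5 genes, where 24.1% of all genes were called, 12.6% higher and 11.5% lower. Bglap2 had the higher change in KO (1.53 ± 0.19, adjusted p = 2.87e-06). Alpl (-1.70 ± 0.20, adjusted p = 2.47e-06), Smpd3 (-1.56 ± 0.30, 0.000605), Ifitm5 (-1.25 ± 0.27, 0.00153) and Spp1 (-0.45 ± 0.12, 0.00701) had the lower change in KO. Smpd3 was at -2.15 without KO day 28 replicate 1 and at -0.96 without WT day 28 replicate 1. Ank (0.31 ± 0.14, adjusted p = 0.109) was called without WT day 28 replicate 1 (0.48, 0.00431), and Phospho1 (-0.27 ± 0.17, adjusted p = 0.28) without KO day 28 replicate 1 (-0.49, 0.0499).

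Over the whole course from day 1 to day 28, 4 of the 10 genes changed differently in the lines, against 20% of all genes, 10.6% higher and 9.46% lower: Phospho1 (0.50 ± 0.17, adjusted p = 0.0388) and Ibsp (0.62 ± 0.19, 0.0219) with a higher change in KO, and Alpl (-0.63 ± 0.20, 0.0321) and Spp1 with a lower one. DESeq2 called Spp1 alone of these, with adjusted p of 0.0612 for Phospho1, 0.175 for Ibsp and 0.24 for Alpl. Ibsp was at 0.26 (adjusted p = 0.21) without KO day 28 replicate 1, and Alpl at -0.37 (0.195) without KO day 28 replicate 2 and -0.30 (0.126) without WT day 28 replicate 1. Leaving out either library of KO or WT at day 1 also ended the calls of Alpl (adjusted p from 0.0678 to 0.12), Phospho1 (0.0589 to 0.12) and Ibsp (0.0551 to 0.0883). Phospho1 was further lost without KO day 28 replicate 1 (0.28, adjusted p = 0.296), WT day 28 replicate 2 (0.36, 0.108) or any one of the day 14 libraries (0.0509 to 0.0573). Smpd3 (-0.69 ± 0.30, adjusted p = 0.114) was called without KO day 28 replicate 1 (-1.29, 0.00276) or WT day 28 replicate 2 (-1.10, 1.81e-05), and Ank (-0.30, 0.123) without WT day 28 replicate 2 (-0.44, 0.00378). Bglap2 (-0.57 ± 0.22, adjusted p = 0.0708) was called without WT day 28 replicate 2 (-0.68, 0.0129) or either WT day 14 library (0.0377 and 0.0344).

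Levels were set side by side between genes as CPM per kilobase of annotated exon. Ibsp was the highest in all 6 groups, with 584, 1157 and 509 CPM per kb in KO at days 1, 14 and 28 and 1305, 1708 and 739 CPM per kb in WT. Enpp1 was the lowest, with 0.12, 0.179 and 0.262 CPM per kb in KO and 0.538, 0.929 and 1.12 CPM per kb in WT. Alpl stood at 133, 240 and 38.9 CPM per kb in KO and 203, 173 and 91.1 in WT, above Smpd3 and Phospho1 in each group. The place of Phospho1 is uncertain, since 89.6% of its exon bases are shared with Zfp652 and 84.2% with Abi3. How reads in shared bases were counted is not given in the sources used here, and the full exon length was the divisor. The 2 genes of pyrophosphate supply were far apart in level: Ank had 14.9, 9.99 and 16.7 CPM per kb in KO and 12.8, 13.1 and 17.5 in WT. Bglap2 per kb passed Alpl at day 28 in KO, with 105 CPM per kb, while in WT Bglap2 had 75.3 CPM per kb on that day, below Alpl. The place of Bglap2 is uncertain too. Of the stretches of 50 bases in its transcript, 69.2% also occur in Bglap and 37.9% in Bglap3, and how such reads were counted is not given.

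**Figure D4:**
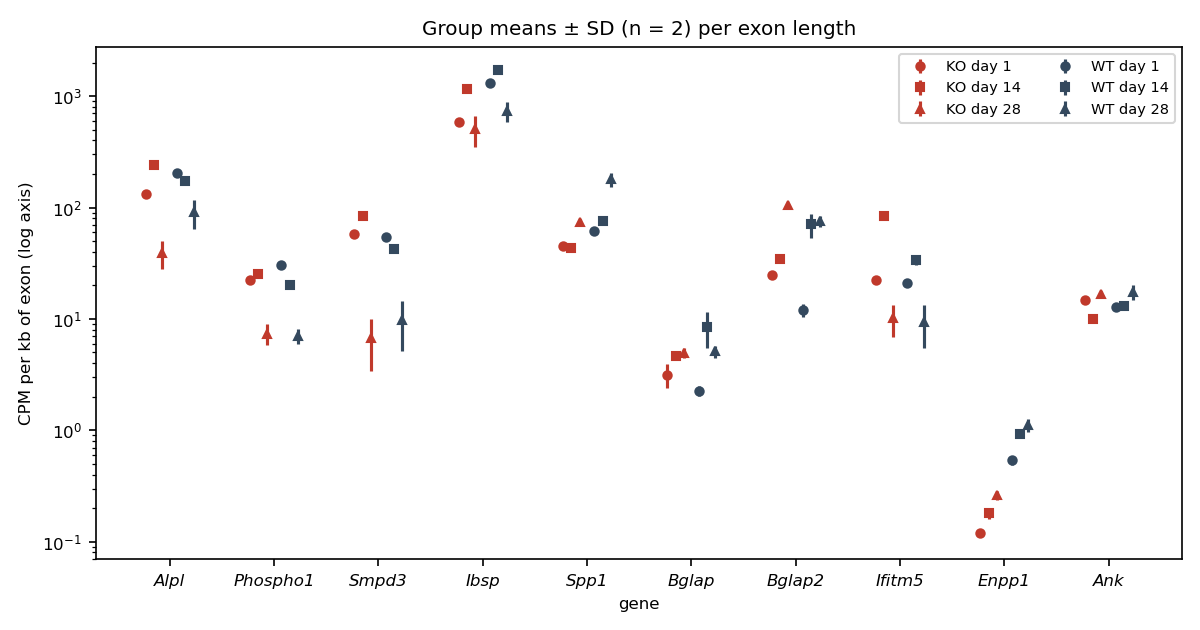
Mean CPM per kilobase of exon of the 10 genes in the 6 groups on a log axis, with bars for the SD over 2 libraries, KO (red) left of WT (blue) and circles, squares and triangles for days 1, 14 and 28. Ibsp is at the top, between 509 and 1708 CPM per kb, and Enpp1 at the bottom, between 0.12 and 1.12 CPM per kb.

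Lists of genes with related roles were read from the same fit. Of 16 genes of phosphate and pyrophosphate handling, 11 were tested. At day 1, 2 were higher and 6 lower in KO, at day 14, 4 were higher and 6 lower, and at day 28, 4 were higher and 2 lower, with list medians of -0.33, -0.53 and 0.19. The shares of all genes higher in KO were 19.5%, 23.8% and 19.8% on the 3 days in order. The shares lower were 20.8%, 25.9% and 21.2%. The medians of all genes were -0.01, -0.02 and -0.01. Nt5e, the ectoenzyme CD73 that makes adenosine and phosphate from AMP, had 10.8 and 12.4 CPM in KO at day 14, against 43.9 and 40.6 CPM in WT (-1.87 ± 0.11, adjusted p = 1.33e-11). The phosphate carrier gene Slc20a2 was higher in KO at day 1 (0.34 ± 0.09, adjusted p = 0.00506), day 14 (0.82 ± 0.10, 1.06e-06) and day 28 (0.53 ± 0.10, 0.000161), while Slc20a1, a carrier of the same family, was lower in KO at day 14 (-0.60 ± 0.08, 1.39e-06) and higher at day 28 (0.34 ± 0.07, 0.000412). Ppa1, a cytosolic pyrophosphatase, had 104 and 94.8 CPM in KO at day 14, against 44.6 and 49.4 CPM in WT (1.08 ± 0.09, adjusted p = 1.25e-09). Enpp2, a relative of Enpp1 that makes lysophosphatidic acid, was lower in KO on all 3 days, by -0.71 ± 0.13, -0.85 ± 0.15 and -0.99 ± 0.15 at days 1, 14 and 28 (adjusted p = 0.000223, 8.78e-05 and 1.42e-05). Abcc6, a liver transporter tied to pyrophosphate in blood, was at 0 counts in all 12 libraries.

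Of 12 matrix phosphoproteins and their processing enzymes, 9 were tested, and 4 were higher and 1 lower in KO at day 1, 4 higher and 3 lower at day 14, and 1 higher and 3 lower at day 28 (medians 0.27, -0.25 and -0.07). In either direction that is 5, 7 and 4 of the 9, where 40.3%, 49.7% and 41% of all genes were called. Dmp1, an acidic phosphoprotein of the osteocyte, had 7.27 and 7.29 CPM in KO at day 14, against 11.9 and 16.1 CPM in WT (-0.92 ± 0.23, adjusted p = 0.00185), and was lower in KO at day 28 also (-0.99 ± 0.23, 0.00176). Omd, a keratan sulfate proteoglycan of bone, was higher in KO at day 1 (0.51 ± 0.15, adjusted p = 0.00925) and day 14 (0.50 ± 0.16, 0.0135). At day 28 it had 3.37 and 3.12 CPM in KO, against 24.8 and 12.7 CPM in WT (-2.55 ± 0.24, adjusted p = 3.93e-08). Phex, a peptidase of osteoblasts and osteocytes that clears peptides blocking mineral growth, had 11.4 and 10.1 CPM in KO at day 1, against 4.55 and 6.1 CPM in WT (1.01 ± 0.20, adjusted p = 0.000396), and was not called at days 14 and 28.

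A list named for inhibitors of mineralization of matrix and serum holds 11 genes, all tested. Among them are Ggcx, Vkorc1 and Vkorc1l1, enzymes of vitamin K-dependent carboxylation, of which Ggcx and Vkorc1 were lower in KO at day 28. Whether each gene of the list acts as an inhibitor in these cells was not tested. At day 1, 2 were higher and 5 lower in KO, at day 14, 2 higher and 4 lower, and at day 28 none higher and 8 lower (medians -0.37, -0.13 and -0.67). Lower in KO on those days were 20.8%, 25.9% and 21.2% of all genes. Higher were 19.5%, 23.8% and 19.8%. Mgp, matrix Gla protein, had 8.74 and 5.98 CPM in KO at day 28, against 39.5 and 19.8 CPM in WT (-2.05 ± 0.25, adjusted p = 1.06e-06). The small proteoglycan gene Aspn had 3.5 and 3.02 CPM in KO at day 1, against 16.8 and 15.5 CPM in WT (-2.31 ± 0.23, adjusted p = 7.92e-08). By day 14 its libraries held 42.1 and 39.8 CPM in KO and 42 and 47.8 CPM in WT (-0.13 ± 0.15, adjusted p = 0.503). Bgn, biglycan, was lower in KO on all 3 days, by -0.57 ± 0.10, -0.83 ± 0.10 and -0.80 ± 0.10 (adjusted p = 0.000156, 8.9e-07 and 2.33e-06). Of 15 matrix vesicle annexins and lipid enzymes, 3 were higher and 2 lower in KO at day 1, 3 higher and 3 lower at day 14, and 2 higher and 6 lower at day 28 (medians 0.03, 0.02 and -0.20). These 5, 6 and 8 of 15 stand beside 40.3%, 49.7% and 41% of all genes called. Smpd1, Smpd2 and Sgms1, which act on the same lipid as Smpd3, were not called on any day. Smpd4, a further sphingomyelinase gene, was higher in KO at day 14 (0.28 ± 0.08, adjusted p = 0.00464), as was Smpd3, while Sgms2 was lower in KO at day 1 (-0.83 ± 0.10, adjusted p = 8.79e-07) and day 28 (-1.22 ± 0.10, 8.18e-09).

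All 12 osteogenic transcription factors were tested. At day 1, 4 were higher and 6 lower in KO, at day 14, 7 higher and 3 lower, and at day 28, 5 higher and 4 lower (medians -0.16, 0.64 and 0.11). Among all genes 19.5%, 23.8% and 19.8% were higher in KO on those days, and 20.8%, 25.9% and 21.2% lower. Runx2 and Sp7, which direct the osteoblast fate, were both higher in KO at day 14. Sp7 had 527 and 512 CPM in KO, against 262 and 236 CPM in WT (1.06 ± 0.16, adjusted p = 9.11e-06), and Runx2 had 342 and 314 CPM in KO, against 177 and 170 CPM in WT (0.92 ± 0.10, 8.71e-08). Day 14 is also the day on which Alpl, Phospho1, Smpd3 and Ifitm5 were higher in KO, and Col1a1, the main collagen gene of bone, was 1.31 ± 0.16 higher (adjusted p = 6.55e-07). The other 6 of the 10 genes (Ibsp, Spp1, Bglap, Bglap2, Enpp1 and Ank) were lower in KO on that day. Atf4 of the list was lower then too (-0.70 ± 0.06, adjusted p = 3.79e-09). A link between these factors and the 10 genes was not tested. Fosl1 and Fosl2, members of the AP-1 family, were lower in KO on all 3 days, Fosl1 by -1.64 ± 0.29, -1.05 ± 0.35 and -1.80 ± 0.25 (adjusted p = 0.000102, 0.0177 and 8.36e-06) and Fosl2 by -0.51 ± 0.08, -0.60 ± 0.09 and -0.61 ± 0.08 (3.65e-05, 8.38e-06 and 5.93e-06).

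**Figure D5:**
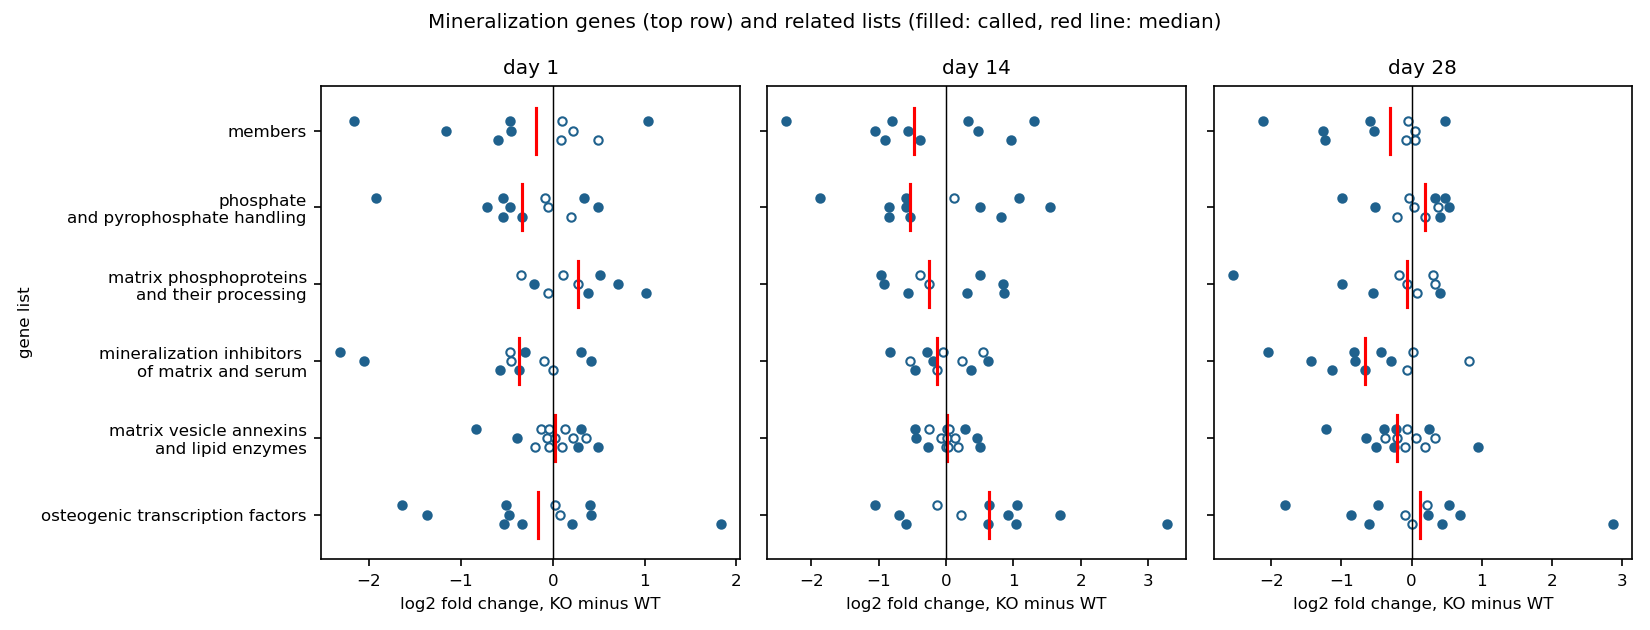
Log2 fold change of KO minus WT at days 1, 14 and 28 for each tested gene of the 10 mineralization genes (top row) and of 5 related lists; filled points have an adjusted p below 0.05 and red lines are list medians. Osteogenic transcription factors have medians of -0.16, 0.64 and 0.11, and the list named for inhibitors, which includes enzymes of vitamin K-dependent carboxylation, has no called gene above 0 at day 28.

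The pattern over the 12 libraries was compared between genes by Pearson's r of log2 CPM, as a description of points that share 6 groups. Among the 10 genes, Phospho1 and Smpd3 were most alike (r = 0.96), followed by Alpl and Smpd3 (0.93). Enpp1 was nearest to Spp1 (0.80), and Bglap to Bglap2 (0.81). Ank ran against Ifitm5 (-0.85) and Bglap2 against Phospho1 (-0.81). Over 11816 genes, the one most like Smpd3 was Axin2 (0.989), that most like Ifitm5 was Copz2 (0.989) with Col1a1 next (0.986), and that most like Enpp1 was Enpp5 (0.988). Phospho1 was most like Mef2c (0.981), Alpl most like Xpnpep1 (0.976), Ibsp most like Nrbp2 (0.974), Spp1 most like Scmh1 (0.973), Ank most like Plekhf1 (0.966), Bglap2 most like Trabd (0.965) and Bglap most like H2afv (0.962).

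Marker lists of other cell types were low beside the osteoblast and osteocyte list, of which Col1a1 and Col1a2 supply 92.2%. That contrast is thus mostly one of type I collagen. The list members Dmp1, Phex, Mepe and Sost had 1154, 826, 167 and 123 counts over all libraries, and Pdpn and Fam20c had 6292 and 6416. Of the other lists, Sox9 had 6758 and Cebpa 2403. The sum of 7 osteoclast markers, of which Ctsk supplies 88.9% of the counts, was 110 to 193 CPM over the 12 libraries. That of 7 adipocyte markers was 19.3 to 29.2 CPM. Of these, Pparg was lower in KO at days 1, 14 and 28 (-5.83, -5.42 and -6.37, adjusted p = 6.63e-08, 4.71e-08 and 9.61e-09). Cebpa was higher in KO on the same days (1.07, 0.50 and 0.41, adjusted p = 1.64e-05, 0.0128 and 0.0452). The sum of 6 endothelial markers, of which Vwf supplies 70.4% and Kdr 14.3% of the counts, was 2.5 to 3.42, 2.31 to 3.02 and 10.3 to 11.6 CPM in KO at days 1, 14 and 28, and 4.23 to 6.1, 10.4 to 14.2 and 24.5 to 27 CPM in WT. Vwf and Kdr were lower in KO at day 14 (-3.20 and -2.35, adjusted p = 1.37e-08 and 0.000282) and day 28 (-1.09 and -3.22, adjusted p = 1.49e-05 and 1.43e-06). Pecam1 and Cdh5 were not called between the lines on any day. The sum of 7 chondrocyte markers, of which Sox9 supplies 63.2% and Hapln1 23.4% of the counts, was 65.6 to 69.2, 54.9 to 56.9 and 42.3 to 45.1 CPM in KO and 75 to 91.1, 95.8 to 97.7 and 71.9 to 84.5 CPM in WT. Its members did not move together. Hapln1 was lower in KO on all 3 days (-3.22, -2.48 and -2.27, adjusted p = 1.13e-10, 2.84e-11 and 8.4e-09). Sox9 was higher in KO at days 1 and 14 (0.32 and 0.51, adjusted p = 0.00411 and 0.000143). It was lower in KO at day 28 (-0.67, adjusted p = 2.62e-06). Col2a1 was lower in KO at days 1 and 14 (-1.36 and -1.48, adjusted p = 0.00719 and 0.00495), with overlapping libraries at day 1, and was not called at day 28. Matn3 was lower in KO at day 1 only (-1.26, adjusted p = 0.0289). Comp was not called on any day. Spp1 and Enpp1, which were lower in KO on all 3 days, were highest in WT at day 28, as was the sum led by Vwf. Ibsp, also lower in KO on all 3 days, was highest in WT at day 14. The part of the sum led by Vwf in those results was not tested. The sum of 7 fibroblast and tendon markers, of which Pdgfra supplies 67.5% of the counts, was highest at day 14, with 177 to 188 CPM in KO and 147 to 152 CPM in WT, against 118 to 120 and 104 to 107 CPM at day 1; Tnmd and Dpt among them had 2 and 10 counts over all libraries.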

How the data were processed

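Poly(A) RNA of 12 libraries was measured as counts of reads per gene, raw whole numbers that the authors deposited in 1 table. STAR, mm10, featureCounts, Subread and edgeR are named, without roles, per the submitters' processing notes. The sources used here do not give the annotation, the strand setting or the treatment of reads that match several places. The table's 32248 rows include 3 transgene rows, which were left out, and 97.4% of the symbols were found in GENCODE M21.

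Groups were formed from the titles. In R 4.3.3, edgeR 4.0.16 kept 13772 genes by filterByExpr (minimum count 10, minimum total 15), scaled libraries by TMM and fitted 1 coefficient per group to all 12 libraries, with 6 residual and 14.6 prior degrees of freedom (common BCV, the spread between replicates beyond counting, 5.53%). A total of 12 comparisons was tested with the two-sided quasi-likelihood F test, and p-values were adjusted over these 13772 genes (Benjamini-Hochberg). Standard errors were taken from F, as the size of the log2 value over its root. CPM use TMM-scaled totals, and correlations of patterns use log2 CPM with a prior count of 2. The fit was checked on simulated counts. No replicates agreed within sampling noise. Alternatives were RLE size factors, library totals only, no filter on low counts, DESeq2 1.42.0, a replicate block, fits of 1 day's libraries, summed osteocalcin counts and leaving out each library in turn. The text names the 10 genes, members of the related lists, and for each gene those with the highest correlation. The 10 genes and the lists were chosen with earlier results of these data known.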

Additional observations from a re-analysis of the deposited data

Results flagged for a closer look

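Flagged here are genes whose change between days differed between KO and WT (adjusted p below 0.05 for the interaction term of edgeR's quasi-likelihood test). Of all genes, 18.8% met this rule between days 1 and 14, 24.1% between days 14 and 28 and 20% from day 1 to day 28. Enpp1 met it in no interval. Values are the change in KO minus the change in WT, in log2 units, from 2 libraries per group. Between days 1 and 14 they were 1.07 for Alpl, 0.78 for Phospho1, 0.87 for Smpd3, 0.60 for Ibsp, 1.21 for Ifitm5, -1.39 for Bglap, -2.10 for Bglap2 and -0.61 for Ank. Between days 14 and 28 they were -1.70 for Alpl, -1.56 for Smpd3, -0.45 for Spp1, -1.25 for Ifitm5 and 1.53 for Bglap2. From day 1 to day 28 they were -0.63 for Alpl, 0.50 for Phospho1, 0.62 for Ibsp and -0.79 for Spp1. Alpl, Smpd3, Ifitm5 and Bglap2 thus had differences of opposite sign in the early and the late interval, which share the day 14 libraries. DESeq2 did not call Smpd3, Ibsp and Bglap between days 1 and 14, nor Alpl, Phospho1 and Ibsp from day 1 to day 28.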

How the results depend on the processing

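Of 2094 alternative values for the 10 genes, 1965 stayed on their side of the threshold, 93 lost their call, 33 gained one and 3 changed sign where either value was called. Any change of sign between values that were both not called was counted among the 1965. Of the 3 sign changes, those of Bglap set it against the summed osteocalcin, which is mostly Bglap2. They were 0.57 for KO minus WT at day 28 (main -0.05) and 0.14 for day 28 minus day 14 in WT (main -0.76). The other was Smpd3, 0.00 for KO minus WT at day 28 without WT replicate 1 (main -0.59, and from -1.18 to 0.00 over all single libraries left out). With the 4 libraries of day 28 alone, 3612 genes were called between the lines (main 5646). DESeq2 called 5 of the 10 genes in the difference of change from day 1 to day 14 (main 8) and 1 from day 1 to day 28 (main 4). Leaving out each library in turn gave 5 to 9 of the 10 genes and 1668 to 3508 of all genes for the first, and 1 to 6 and 1691 to 3899 for the second; a lone sample is there assumed to vary like the other groups. The causes were not tested. With library totals only, the share of called genes that were higher was 38.3% for KO minus WT at day 1 (main 48.4%), 32.9% at day 28 (main 48.4%) and 41.1% for day 14 minus day 1 in WT (main 53.3%), and no median moved by more than 0.09. With no filter on low counts, standard errors were smaller (for Alpl at day 1, 0.06, main 0.14) and 6 values gained a call. These were Alpl and Smpd3 for day 14 minus day 1 in WT (adjusted p = 0.00361 and 3.42e-05, main 0.237 and 0.187) and Ibsp for day 28 minus day 1 in KO (0.00104, main 0.211). In the difference of change they were Spp1 from day 1 to 14 (0.0219) and Smpd3 and Bglap2 from day 1 to 28 (1.51e-08 and 0.0294, main 0.114 and 0.0708). Replicate numbers do not pair the samples (correlations of same-numbered deviations from -0.0402 to 0.112), and with a replicate block 6, 10 and 6 of the 10 genes were called between the lines at days 1, 14 and 28, as without it. Depth limits Bglap and Enpp1 most. Genes of the related lists were not refitted under the alternatives.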
